A study of Mus musculus with 2 samples.

Results

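The genes described here store, move and sense iron, zinc and copper. Members were chosen by symbol: the Slc30a and Slc39a zinc transporter families, the Slc11a and Slc31a families, Slc40a1, the metallothionein genes Mt1 to Mt4, and 15 named genes of iron, haem, zinc and copper handling. The table held 48 such genes among 23477 gene symbols, and for each one the transcript row with the most reads was used. All 48 were measured in 1 group, eosinophils sorted by flow cytometry from enzyme-digested colons of naive wild-type C57BL6 mice, with 2 samples and 3 technical CEL-Seq libraries each. CEL-Seq reads tags near the 3′ end of messenger RNA. The table gives 1 value per transcript for the group and does not name how many libraries it averages. A mean over 6 was taken from the 2 samples with 3 libraries each and from read totals that are all whole sixths, and every read count below rests on it. No value per sample, SD or test between samples can therefore be printed. The sources used here state neither the age and sex of the mice nor how many were used.

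Cells take up iron bound to transferrin or as the free metal, keep the surplus inside ferritin shells and release it through a single known exporter, ferroportin. The RNA-binding proteins IRP1 and IRP2 hold this balance by gripping a short hairpin, the iron-responsive element, in the messages of storage, uptake and export genes. Zinc enters the cytosol through the SLC39 (ZIP) family and leaves it, outward or into organelles, through the SLC30 (ZnT) family, while metallothioneins bind surplus zinc and copper. Copper enters through SLC31A1 and is pumped out, or into the secretory pathway, by the ATP7 pumps. Phagocytes are known to withhold metals from microbes with the same machinery.

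Levels are given as RPKM, the reads of a transcript divided by its length in kilobases and by the library's reads in units of 1000000, with a 95% exact Poisson interval of the reads summed over the 6 libraries. The intervals cover the counting error of reads only. The labels name no molecular identifiers, so amplified copies of a molecule may be counted as separate reads and the intervals may be too narrow. The spread between mice is not in the values. Because tags come from the 3′ end only, dividing by length raises short transcripts and lowers long ones, so the reads are given as well. The gene rows held 7692119 reads over the 6 libraries, a mean of 1282020 per library, and 31040 of them fell on the 48 genes. A count of 0 allows up to 3 reads, which is 0.390 reads per 1000000 reads on genes (RPM).

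The cell type label was checked against markers. Of 6 eosinophil markers 5 reached an RPKM of 1, from Il5ra at 18.6 to Ccr3 at 155, and the eosinophil peroxidase Epx stood at 0.265. Markers of other colonic cells were present too: 8 of 8 epithelial genes reached 1, between 5.09 and 89.3, as did 4 of 5 goblet cell genes, 4 of 5 fibroblast genes, 6 of 8 macrophage genes and 2 of 7 neutrophil genes. Among the macrophage markers Mertk was listed at 0 and Cd163 had 1 read, and among those of neutrophils Elane and Mpo were listed at 0. Of 8 erythrocyte markers 7 reached 1, but 6 of these are globin rows between 69.3 and 567 that list only 3 different read numbers, 7032, 4573 and 867, and most of the searched globin sequence is shared with another gene. In these bulk libraries many cells with little of an RNA and few cells with much of it cannot be told apart.

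Of the 48 metal-handling genes, 26 reached an RPKM of 1, or 54.2%, beside 31.0% of all gene symbols. Their median RPKM was 1.24, beside 0.186 for all genes. Reads were listed for 45 of the 48, beside 69.0% of all genes, and the remaining 3, Slc30a3, Slc39a12 and Atp7b, were listed at 0. An RPKM of 10 was reached by 7 genes: Fth1, Mt1, Slc11a1, Ftl1, Mt2, Slc39a4 and Slc40a1. The lowest of these, Slc40a1 at 10.5, ranked 1979 of 23477 genes. An RPKM of 5 was reached by 8 members, beside 14.1% of all genes. Reads were concentrated in few members, since Fth1, Mt1 and Slc11a1 together held 83.1% (exact binomial 95% interval 82.7 to 83.5) of the reads on all 48. Counting without length, 40 of the 48 genes reached 1 RPM, beside 50.9% of all genes.

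**Figure D1:**
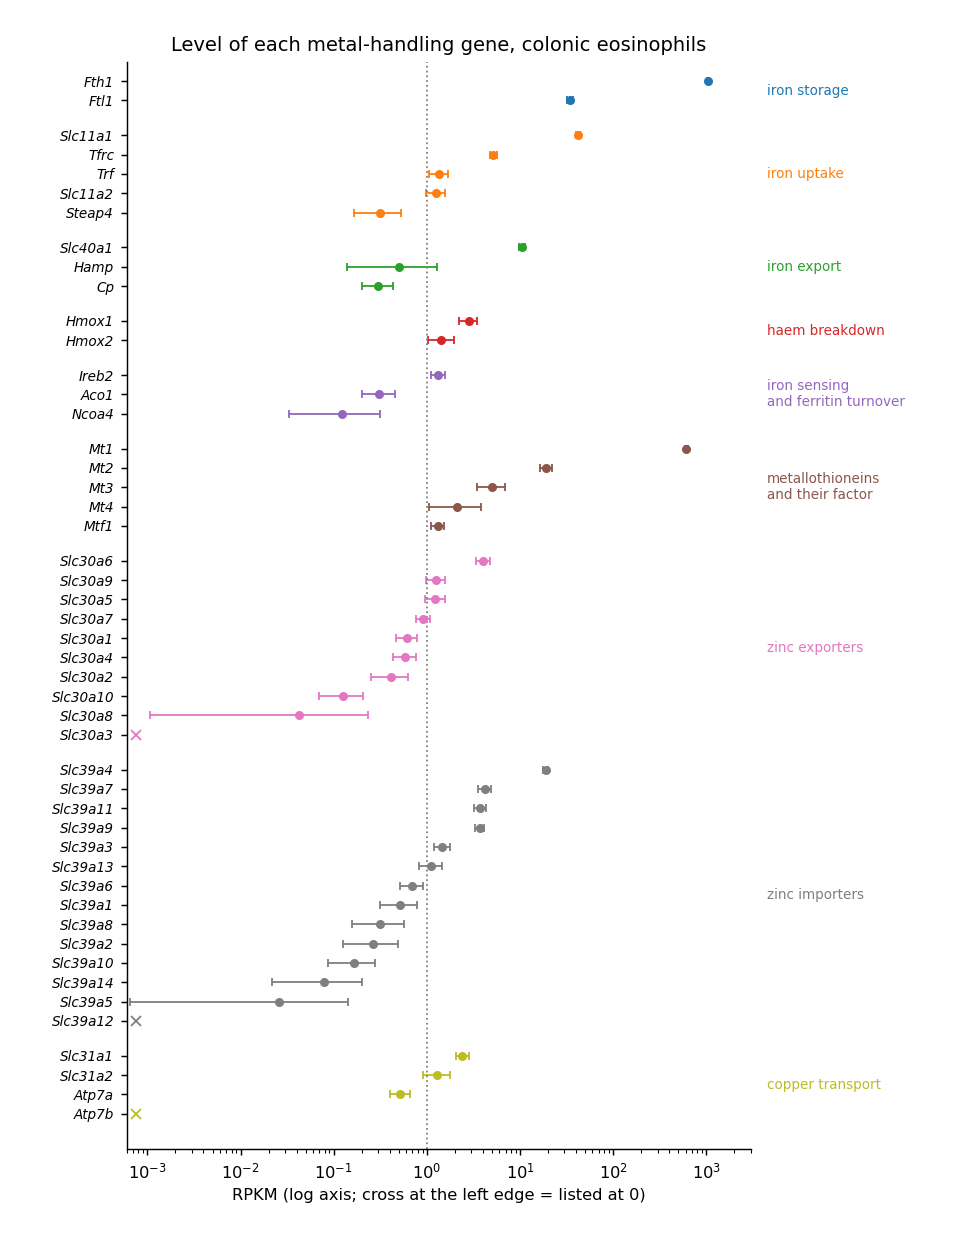
RPKM of each of the 48 genes on a log axis, grouped by role, with exact 95% Poisson intervals of the reads as bars and a dotted line at an RPKM of 1. Fth1 at 1044 and Mt1 at 613 stand to the right of all other members, and crosses at the left edge mark the 3 genes listed at 0.

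The messages that the iron regulatory proteins bind are shown first, since they tie storage, uptake and export together. The untranslated regions of all annotated mouse transcripts (GENCODE M21, GRCm38) were searched on the sense strand for the hairpin's shape. The shape is an unpaired C, an upper stem of 5 pairs closing a CAGTGN loop whose last base is not G, and at least 4 pairs in a lower stem of 6 bases. A form with 1 extra unpaired base on the 3′ side of the upper stem, known from Slc11a2, was also accepted with at least 5 lower pairs. In the lines below the loop is in capitals, T stands for U, and each sequence reads 5′ to 3′ on the strand of its gene.
Fth1, 5′ UTR, chr19:9982732-9982760, plus strand: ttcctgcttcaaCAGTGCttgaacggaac
Ftl1, 5′ UTR, chr7:45459779-45459807, minus strand: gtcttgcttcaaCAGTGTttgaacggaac
Slc40a1, 5′ UTR, chr1:45925465-45925493, minus strand: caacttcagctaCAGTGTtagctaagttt
Slc11a2, 3′ UTR, chr15:100395152-100395181, minus strand: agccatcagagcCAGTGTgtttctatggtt
Tfrc, 3′ UTR, hairpin 1 of 4, chr16:32631219-32631247, plus strand: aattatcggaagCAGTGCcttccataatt
Tfrc, 3′ UTR, hairpin 2 of 4, chr16:32631598-32631626, plus strand: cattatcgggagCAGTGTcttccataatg
Tfrc, 3′ UTR, hairpin 3 of 4, chr16:32631663-32631691, plus strand: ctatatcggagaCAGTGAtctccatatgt
Tfrc, 3′ UTR, hairpin 4 of 4, chr16:32631710-32631738, plus strand: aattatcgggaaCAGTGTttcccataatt

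These 8 hairpins lie in 5 of the 48 genes. A match was found in the 5′ UTR of 8 of 21181 genes (0.0378%), 3 of them members, and in the 3′ UTR of 17 of 21166 genes (0.0803%), 2 of them members. The hairpins of both ferritin genes differ at 3 of 29 positions. The 4 hairpins found in Tfrc lie within 520 bases of its 3′ UTR. An element with another loop or stem would be missed by this search. In the textbook account, a hairpin in the 5′ UTR lets the proteins block translation when iron is scarce, and hairpins in the 3′ UTR of Tfrc let them protect the message from decay. The levels of the 5 genes ran from 1044 for Fth1 to 1.24 for Slc11a2, and message levels do not report the block on translation. Outside the members the shape was in 20 genes, of which 19 were matched to the table. Of these 19, 12 reached an RPKM of 1, beside 31.0% of all genes, and the actin regulator gene Wdr1 was highest at 80.2. Those with a known element of this kind include Alas2, the erythroid enzyme that starts haem synthesis, at an RPKM of 2.82, and in the hypoxia factor gene Epas1 at 5.29.

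Ferritin heavy chain was the leading message of iron storage. Fth1 (NM_010239, chr19:9982646-9985111 in mm10), which encodes the subunit that oxidises iron for storage, had 18637 reads over the 6 libraries and an RPKM of 1044 (1029 to 1059). It ranked 27 of 23477 genes by RPKM and 50 by reads. Ftl1 (NM_010240, chr7:45457944-45459886), the light chain that helps the mineral core to form, had 710 reads and an RPKM of 34.4 (31.9 to 37.0). Fth1 was thus 30.4 times Ftl1 by RPKM (28.2 to 32.8), and 26.2 times by reads.

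The ferritin ratio has a limit on the Ftl1 side. When the final 500 bases of the Ftl1 transcript were cut into words of 35 bases, 88.0% of these also occurred in transcripts of other genes, 27 in number and led by Ftl1-ps1, beside 19.7% and 3 genes for Fth1. The sources used here do not state how reads with several alignments were treated, so the level of Ftl1 is uncertain. Both chains together held 62.3% of the reads on metal-handling genes (61.8 to 62.9).

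Among iron uptake genes the phagosomal transporter exceeded the general ones. Slc11a1 (NM_013612, chr1:74375203-74386051), the NRAMP1 transporter that draws divalent metals out of phagosomes, had 1797 reads and an RPKM of 42.1 (40.2 to 44.1). C57BL6 mice are known to carry a coding variant that impairs this protein, and the message level says nothing of its function. Of the markers above, 6 of 8 for macrophages and 2 of 7 for neutrophils reached an RPKM of 1, beside 31.0% of all genes. The part of RNA from such cells in the level of Slc11a1 was not tested. Tfrc (chr16:32608896-32632794), the transferrin receptor, had 492 reads and an RPKM of 5.18 (4.73 to 5.66). Trf, the gene of the plasma iron carrier transferrin, had 70 reads and an RPKM of 1.34 (1.04 to 1.69). Steap4, a membrane reductase for iron and copper, had 13 reads and 0.311 (0.166 to 0.533), the lowest of the 5 uptake genes. In the searched 3′ sequence of Trf, 39.1% of words are also in the annotated gene Gm20425. For Slc11a1 7.73% of words are also in other genes, 224 in number.

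Slc11a2, the DMT1 transporter that moves iron out of endosomes and across the gut lining, showed its reads mainly at 1 of its 2 annotated ends. The row NM_001146161, which ends at position 100392658 of chromosome 15, had 73 reads and an RPKM of 1.24 (0.973 to 1.56). The row NM_008732, which ends 4758 bases further downstream on the minus strand, had 9 reads and an RPKM of 0.197. Of the reads listed for both rows, 89.0% were on the first (exact binomial 80.2 to 94.9, if no read was counted in both). The hairpin shown above is in the transcript matched to NM_001146161, 2494 bases before its end, and was not found in that matched to NM_008732. Slc11a1 stood 34.0 times above the row used for Slc11a2 by RPKM (26.9 to 43.5).

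Iron export was represented by ferroportin. Slc40a1 (NM_016917, chr1:45908070-45925594), the ferroportin gene, had 585 reads and an RPKM of 10.5 (9.67 to 11.4), 2.03 times that of Tfrc (1.79 to 2.29), while by reads the ratio was 1.19 (1.05 to 1.34). Cp, the gene of ceruloplasmin, a copper enzyme that oxidises exported iron, had 28 reads and an RPKM of 0.2996 (0.199 to 0.433). Hamp, the gene of hepcidin, the liver hormone that triggers breakdown of ferroportin, had 4 reads and 0.507 (0.138 to 1.30), and 29.8% of its searched words are also in Hamp2. Ferroportin is also abundant in iron-recycling macrophages, and 6 of the 8 macrophage markers reached an RPKM of 1. They were Apoe at 54.3, Csf1r at 41.0, C1qb at 37.9, C1qc at 10.7, C1qa at 3.29 and Cd68 at 1.39, while the haem scavenger receptor Cd163 had 1 read and Mertk was listed at 0, and the list summed to 149. Their part in the level of Slc40a1 was not tested.

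Both haem breakdown genes and 1 of 3 genes of iron sensing and ferritin turnover reached an RPKM of 1, beside 31.0% of all genes. Their RPKM values ran from 0.123 to 2.81. Hmox1, the inducible haem oxygenase that frees iron from haem, had 81 reads and an RPKM of 2.81 (2.23 to 3.49). Its constitutive relative Hmox2 had 39 reads and 1.43 (1.02 to 1.96), so Hmox1 was 1.96 times Hmox2 by RPKM (1.32 to 2.95). Ireb2, which encodes IRP2, had 123 reads and an RPKM of 1.32 (1.10 to 1.58). Aco1, which encodes IRP1, a protein that doubles as an aconitase, had 25 reads and 0.308 (0.199 to 0.454), so that Ireb2 was 4.31 times Aco1 (2.78 to 6.91). Ncoa4, the receptor that carries ferritin to lysosomes for iron release, had 4 reads and an RPKM of 0.123 (0.0334 to 0.314). That RPKM was below every other gene of the iron and haem groups, but Hamp also had 4 reads. The interval of Ncoa4 overlapped those of Hamp, Cp, Aco1 and Steap4. Annotated exons of Cdip1 overlap the 3′ end of Hmox2 on the opposite strand, and whether counting used strand is not stated.

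The metallothioneins, small cysteine-rich proteins that hold zinc and copper, differed steeply in level along their cluster. The 4 genes lie within 43124 bases of chromosome 8, and Mt1 (NM_013602, chr8:94179089-94180327) had 5362 reads and an RPKM of 613 (596 to 629), rank 41 of all genes. Mt2 (NM_008630, chr8:94172618-94173567), which ends 5521 bases before Mt1 begins, had 205 reads and 19.0 (16.5 to 21.8). Mt3, known as the brain form, had 37 reads and an RPKM of 4.96 (3.49 to 6.83), and Mt4, known from stratified epithelium, had 11 reads and 2.11 (1.05 to 3.77). Mt1 was 32.2 times Mt2 by RPKM (28.0 to 37.2), Mt2 was 3.84 times Mt3 (2.70 to 5.61) and Mt3 was 2.35 times Mt4 (1.18 to 5.11).

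These transcripts are short, so RPKM places them high for their reads: Mt1 ranked 215 by reads, and Mt3 and Mt4 had only 4.81 and 1.43 RPM. None of the searched words of the 4 genes occurs in another gene. An annotated gene, Gm45774, overlaps the 3′ end of Mt2 on the opposite strand. Mtf1, the zinc-sensing factor that switches metallothionein genes on, had 161 reads and an RPKM of 1.31 (1.12 to 1.53), and the annotated gene 1110065P20Rik overlaps its 3′ end on the opposite strand.

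Among the zinc transporters 1 importer stood apart. Slc39a4 (NM_028064, chr15:76612383-76616852), the ZIP4 importer known for zinc absorption by enterocytes, had 843 reads and an RPKM of 18.9 (17.6 to 20.2). It was 4.51 times the next importer, Slc39a7, by RPKM (3.80 to 5.39) and 2.72 times Slc39a9, the next by reads (2.38 to 3.11). On its own it held 53.8% of the summed RPKM of the 14 importers and 47.8% of their reads. Epithelial markers stand beside it, with Epcam at an RPKM of 89.3, Krt19 at 66.7, Car4 at 38.6 and Lgals4 at 30.1. The rest of that list was Krt20 at 10.9, Krt8 at 10.1, Vil1 at 6.39 and Cdh1 at 5.09. The part of epithelial RNA in the level of Slc39a4 was not tested.

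Slc39a7, Slc39a11 and Slc39a9 came next. Slc39a7, which releases zinc from the endoplasmic reticulum, had 156 reads and an RPKM of 4.18 (3.55 to 4.90). Slc39a11 had 188 reads and 3.74 (3.22 to 4.31), and Slc39a9, a Golgi transporter, had 310 reads and 3.69 (3.29 to 4.13), so the intervals of these 3 genes overlapped. All of the searched sequence of Slc39a7 is shared with Gm20427, an annotated gene that overlaps it on the same strand. Slc39a3, a plasma membrane importer, followed at 1.45 (1.19 to 1.76) and the Golgi transporter Slc39a13 at 1.11 (0.819 to 1.46).

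The other 8 importers were below an RPKM of 1. Slc39a6 and its close relative Slc39a10, both at the plasma membrane, had 50 and 13 reads and RPKM values of 0.693 (0.515 to 0.914) and 0.163 (0.0869 to 0.279). Slc39a1, an importer of many tissues, had 21 reads and 0.511 (0.316 to 0.781). Slc39a8 and Slc39a14, which also carry manganese and iron, had 11 and 4 reads and RPKM values of 0.317 and 0.0791. Slc39a2 had 10 reads and 0.264 (0.127 to 0.486). Slc39a5, known from the basolateral side of enterocytes, had 1 read and 0.0258, and Slc39a12, known from brain, was listed at 0.

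Of the 10 exporters 3 reached an RPKM of 1, or 30%, close to the 31.0% of all genes. Of the 14 importers 6 did, or 42.9%. At least 1 read was listed for 9 exporters, beside 69.0% of all genes. Slc30a6 had 127 reads and led at 4.04 (3.37 to 4.81), ahead of its partner in the early secretory pathway, Slc30a5, with 65 reads and 1.23 (0.951 to 1.57). Slc30a9, a mitochondrial transporter, had 75 reads and 1.24 (0.977 to 1.56). Slc30a7, which loads the Golgi with zinc, had 139 reads, the most of the family, but an RPKM of 0.906 (0.762 to 1.07). Slc30a1, the exporter of the plasma membrane, had 62 reads and 0.614 (0.470 to 0.787), and the vesicle transporter Slc30a4 had 51 reads and 0.576 (0.429 to 0.757). Slc30a2 had 21 reads and 0.407, and Slc30a10, known as a manganese exporter, had 15 reads and 0.125. The forms of specialised secretory cells were at or near the bottom, with 1 read for Slc30a8 of insulin granules and none for Slc30a3 of synaptic vesicles.

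The importers summed to an RPKM of 35.1 and the exporters to 9.18, a ratio of 3.82 that was 3.17 by reads. Their medians were close, at 0.602 and 0.595. Without Slc39a4, an omission chosen after the values were seen, the importers summed to 16.2, a ratio of 1.77, and their median of 0.511 lay below that of the exporters. The difference between the family sums therefore rested in large part on Slc39a4.

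**Figure D2:**
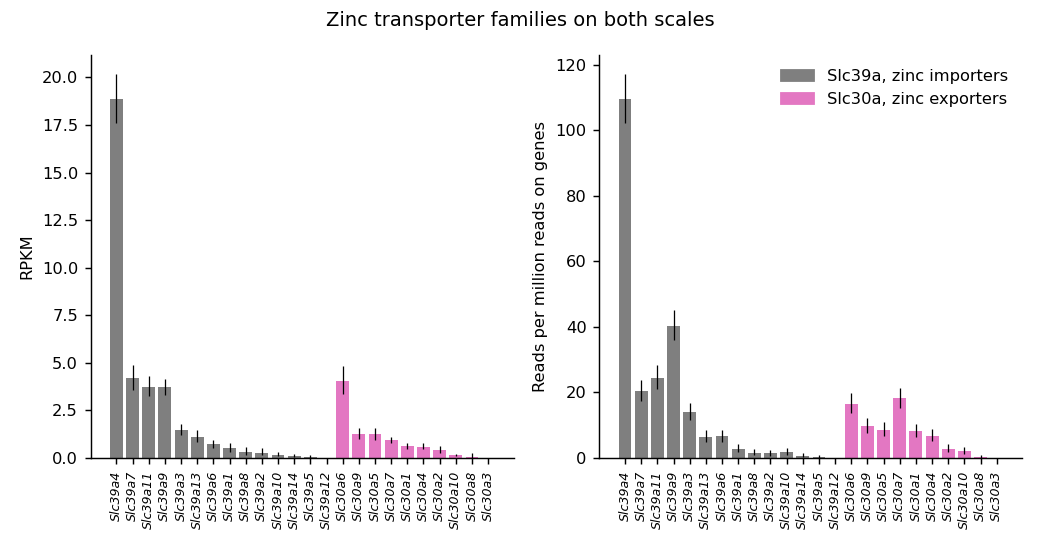
Bars give RPKM (left) and RPM (right) for the 14 Slc39a importers and 10 Slc30a exporters, with exact 95% Poisson intervals as lines and genes in the order of RPKM on both sides. Slc39a4 is the tallest bar on both scales, and Slc30a7 and Slc39a9 stand higher among their families by reads than by RPKM.

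Of the 4 copper transport members 2 reached an RPKM of 1, beside 31.0% of all genes, and the highest was at 2.41. Slc31a1, the CTR1 importer, had 159 reads and an RPKM of 2.41 (2.05 to 2.81), and its endosomal relative Slc31a2 had 37 reads and 1.28 (0.901 to 1.76). Both genes lie within 105325 bases of chromosome 4, and Slc31a1 was 1.88 times Slc31a2 by RPKM (1.31 to 2.77) and 4.30 times by reads (2.99 to 6.32). Atp7a, the copper pump of most tissues, had 68 reads and an RPKM of 0.514 (0.399 to 0.652). Atp7b, the pump of liver, was listed at 0.

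Partners of these genes that are not members were described from a list of 43 iron, haem, copper and zinc genes, of which 24 reached an RPKM of 1, or 55.8%, beside 31.0% of all genes. The highest by RPKM was Atox1, the chaperone that hands copper to the ATP7 pumps, at 221 from 1894 reads, above the importer Slc31a1 and the pumps on both scales. Pcbp2 and Pcbp1, which deliver iron to ferritin, had RPKM values of 115 and 94.7 and more reads than Atox1, 5386 and 2646. The copper and zinc enzyme Sod1 had an RPKM of 105 from 1170 reads. Cox17, which feeds copper to cytochrome oxidase, had 63.7 from 445 reads, and Slc25a28, a mitochondrial iron importer, 57.0 from 1794 reads. Of the searched words 42.1% in Sod1 and 54.4% in Cox17 are also in other genes. By metal, 8 of 19 iron genes, 10 of 15 haem genes and 6 of 8 copper genes reached 1, and the zinc gene, the vesicle transporter Tmem163, stood at 0.0139. Listed at 0 were Tfr2, Tmprss6, Ftmt, Flvcr2 and Sco2.

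**Figure D3:**
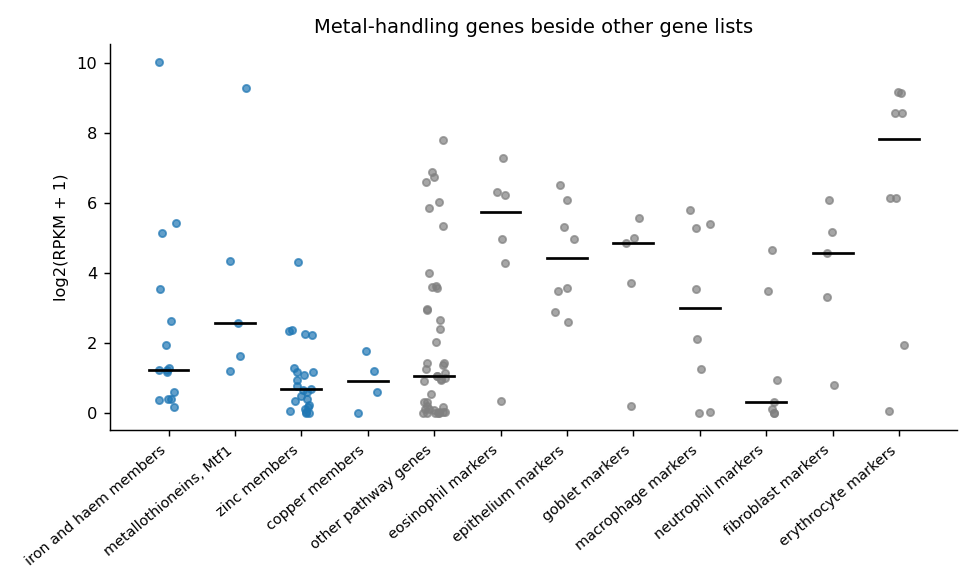
Each point is 1 gene on log2(RPKM + 1), with a horizontal line at the list's median, for the metal-handling members in blue and for other pathway genes and cell type markers in grey. Fth1 and Mt1 lie near the top of the plot. All zinc and copper members lie below the medians of the eosinophil, epithelial, goblet and fibroblast markers. Hbb-b1 and Hbb-b2 repeat the reads of Hbb-bs and Hbb-bt.

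Several members have more than 1 transcript row. Of the 48 genes 12 did, and for 7 of these at least 1 other row listed the same reads as the row used, which was then the first in the file. Reads differed between rows for Fth1, Cp, Slc11a2, Slc39a5, Slc39a7 and Slc39a8. For Slc39a7 the row NM_001077709 had 156 reads and NM_008202 had 21, although both list the same start and end. For Slc39a8 the row NM_026228 had 11 reads and the other rows, which share its 3′ end, were listed at 0. The sources used here do not state how reads were divided among such rows.

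**Figure D4:**
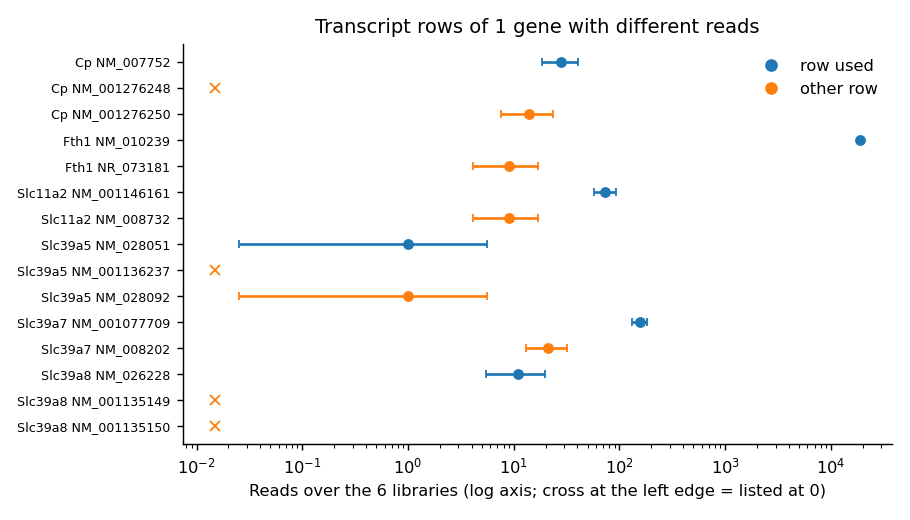
Reads over the 6 libraries on a log axis for the transcript rows of the 6 genes whose rows differ, with exact 95% Poisson intervals; blue marks the row used and orange the others, and crosses at the left edge mark rows listed at 0. Slc11a2 shows 73 reads against 9 and Slc39a7 156 against 21.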

How the data were processed

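Eosinophils sorted from naive mouse colon were profiled by CEL-Seq in 2 samples of 1 group, with 3 technical libraries each, per the labels' protocols. The build was mm10 and the named tools were STAR, version 2.4.2a, and DESeq, per the submitters' processing notes. The sources used here name no counter, annotation release or transcript lengths. The deposited table has 31295 transcript rows with an RPKM computed by the authors and a read signal, a mean read total per library. All of the deposited read totals times 6 were whole within 0.0001, as a mean over the labelled libraries would be, so they were multiplied by 6 to give reads over all libraries. There were 0 columns of other samples. For each gene symbol the row with the most reads was kept, ties going to the first row.

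Exact Poisson intervals (95%) were computed for reads, and exact binomial intervals for shares and ratios of reads. On RPKM they are approximate, since library depths may differ. RPM used the reads of the 23477 kept rows. All 48 members matched a GENCODE M21 transcript by accession. Coordinates are those of the table, or of GENCODE M21 (GRCm38) for the hairpins. Marker and pathway symbols were matched directly or through RefSeq synonyms (GRCm38.p6); all 43 pathway genes matched. The members and gene lists were chosen with earlier results of these data known. Every member is named; of the pathway list, the 6 highest genes and those at 0. No test was run, because the table has 1 value for 1 group. The code for intervals, row choice and sequence searches was run on simulated data built to the same assumptions. Such a check cannot show whether those assumptions hold for these libraries. The software was Python 3.11.15 with scipy 1.17.1, numpy 2.4.6, pandas 2.3.3 and, for figures, matplotlib 3.10.9.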

Additional observations from a re-analysis of the deposited data

Results flagged for a closer look

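Transcript rows that stand outside the levels given for each member, 2 of which were set beside the row used above, held reads above the 3 that a count of 0 allows, in numbers that differed from the row used. The row NM_001276250 of Cp had 14 reads, beside 28 in NM_007752, which ends 16752 bases away. The noncoding row NR_073181 of Fth1 had 9 reads, beside 18637 in the row with the same 3′ end. The row NM_008732 of Slc11a2 had 9 reads, and NM_008202 of Slc39a7 had 21. There are no control samples in the data to set these against.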

How the results depend on the processing

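The count of members at an RPKM of 1 or more was 26, beside 31.0% of all genes. It was also 26 with the row of highest RPKM and was 24 among members with under 50% shared words. It moved to 45 for any RPKM above 0, beside 69.0% of all genes. At an RPKM of 5 it was 8, beside 14.1%, and at 1 RPM it was 40, beside 50.9%. Role groups with a median of 1 or more numbered 4 by RPKM, 4 with the row of highest RPKM and 9 by RPM. Those with a mean log2(RPKM + 1) of 1 or more, in place of a median, numbered 6. The ferritin share of 62.3% became 61.4% over all rows and 58.8% of summed RPKM. The log2 ratio of zinc importers to exporters was 1.93 on summed RPKM, 1.66 on reads, 0.018 on medians, 0.82 on sums without Slc39a4 and -0.22 on medians without it; the last 2 settings were added after seeing the data. Pathway genes outside the members numbered 24 of 43 at an RPKM of 1, beside 31.0% of all genes. They numbered 31 at 1 RPM, beside 50.9%, and 38 above 0, beside 69.0%. No paired analysis was possible because the table has 1 value per transcript for both samples, and leaving out a sample was not run for the same reason. Depth limits the 18 members with under 30 reads over the 6 libraries, whose intervals are wide.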
